A study of Mus musculus with 12 samples.

Results

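Cxcl9 and Cxcl10 are chemokines that bind the receptor CXCR3, and they are described here with the genes of that receptor (Cxcr3), of interferon gamma (Ifng) and of both chains of the interferon gamma receptor (Ifngr1, Ifngr2). These 6 genes were picked by name from the 23329 gene rows of the count tables, and all 6 had a row. The choice rested on measured values: Cxcl9 was lower in spleen and higher in duodenum after treatment, and Cxcl10 was higher in both tissues. The treatment changes of Cxcl9 and Cxcl10 are therefore given as a description, without a test.

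The study sequenced RNA of whole spleen and duodenum from wild-type C57BL/6J mice of 2 months. Mice had received AC H6, which the series presents as inducing the lymphotoxin beta receptor (LTbR). Control mice received an isotype antibody, and both agents were given as 100 µl of a 1 mg/ml solution, 24 h earlier. The 4 groups were spleen after AC H6, spleen after isotype, duodenum after AC H6 and duodenum after isotype, with 3 libraries in each and 12 in all. Nothing in the labels ties each library to a mouse of its own, so the p-values below reflect spread among libraries that may be technical.

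CXCL9 and CXCL10 are secreted proteins that draw CXCR3-bearing cells, mainly activated T cells and natural killer cells, into inflamed tissue. Interferon gamma, made by those same lymphocytes, binds a receptor of paired IFNGR1 and IFNGR2 chains, and the receptor-bound kinases JAK1 and JAK2 then pass the signal on into the cell. CXCL9 is known as a chemokine that depends largely on interferon gamma, whereas CXCL10 also responds to type I interferons. CXCL10 is known to respond to NF-kB too, a factor that the lymphotoxin beta receptor activates. No lack of that response is implied for CXCL9.

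Library totals lay between 13874091 counts (spleen, isotype, replicate 1) and 45847467 counts (spleen, AC H6, replicate 1). Haemoglobin genes took 13.4% to 24.3% of the counts in spleen after AC H6 and 6.58% to 16.3% after isotype. In duodenum, the ribosomal transcript Rn45s took 7.56% of isotype replicate 1, and pancreatic amylase took 8.64% of AC H6 replicate 3. Although the extraction protocol speaks of brain, the summed level of 8 neural markers was 47.4 to 88.3 CPM (counts scaled to library size) over all libraries. The summed level of 12 enterocyte markers was 36846 to 38543 CPM in AC H6 duodenum and 41611 to 43437 CPM in isotype duodenum, lower in every AC H6 library, and 45.8 to 59.2 CPM in spleen libraries. Levels below are CPM after scaling all 12 libraries with TMM factors (trimmed mean of M values).

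Both chemokine genes lie on the minus strand of mouse chromosome 5. On build GRCm38 (GENCODE M21), Cxcl9 spans chr5:92321347-92328079 and Cxcl10 spans chr5:92346638-92348889, and their starts are 20810 bases apart. The 250 bases before each RefSeq gene start are printed because the 2 neighbouring genes differed in spleen, and because interferon and NF-kB signalling act through factors that bind short DNA motifs. Capitals mark matches, on either strand, to 3 kinds of motif. These are an interferon-stimulated response element (ISRE, GAAA and GAAA with 2 free bases between), a gamma-activated site (GAS, TTC and GAA with 3 free bases between) and a kB site (GGG and TTCC with 3 free bases between, 10 letters, or 2, 9 letters). Both stretches read 5′ to 3′ on the minus strand, from the RefSeq table on GRCm38.p6: Cxcl9 at chr5:92328080-92328329 and Cxcl10 at chr5:92348890-92349139.
Cxcl9: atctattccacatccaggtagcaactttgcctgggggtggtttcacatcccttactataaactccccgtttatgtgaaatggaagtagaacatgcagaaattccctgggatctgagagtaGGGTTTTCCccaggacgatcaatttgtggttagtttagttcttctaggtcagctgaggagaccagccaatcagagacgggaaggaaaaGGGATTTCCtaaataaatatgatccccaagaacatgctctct
Cxcl10: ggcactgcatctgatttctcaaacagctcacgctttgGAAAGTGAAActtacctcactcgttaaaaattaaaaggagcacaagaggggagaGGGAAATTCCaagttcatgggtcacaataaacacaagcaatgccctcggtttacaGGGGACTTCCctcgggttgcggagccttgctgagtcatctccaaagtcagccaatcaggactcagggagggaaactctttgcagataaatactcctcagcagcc

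The Cxcl10 stretch held 1 ISRE match, GAAAGTGAAA, at -213 to -204 bases from the start. It also held 2 kB matches of 10 letters, GGGAAATTCC from base -159 and GGGGACTTCC from base -104, the second of which also contains a 9-letter match. The Cxcl9 stretch held 2 kB matches of 9 letters, GGGTTTTCC from base -130 and GGGATTTCC from base -42, and no ISRE or GAS letters. Of the other genes, Ifng had 1 GAS match, Ifngr2 had 1 kB match of 10 letters, and Cxcr3 and Ifngr1 had none. Among 32851 promoters of 27025 genes, 2.98% held the ISRE letters, 7.02% the GAS letters, 4.65% the kB letters of 10 and 4.98% those of 9. The motif letters were chosen after the sequences had been seen, and a match is a description of letters, not of binding. Other forms of such sites would not match these letters, so a stretch without a match is not shown to lack a responsive element.

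**Figure D1:**
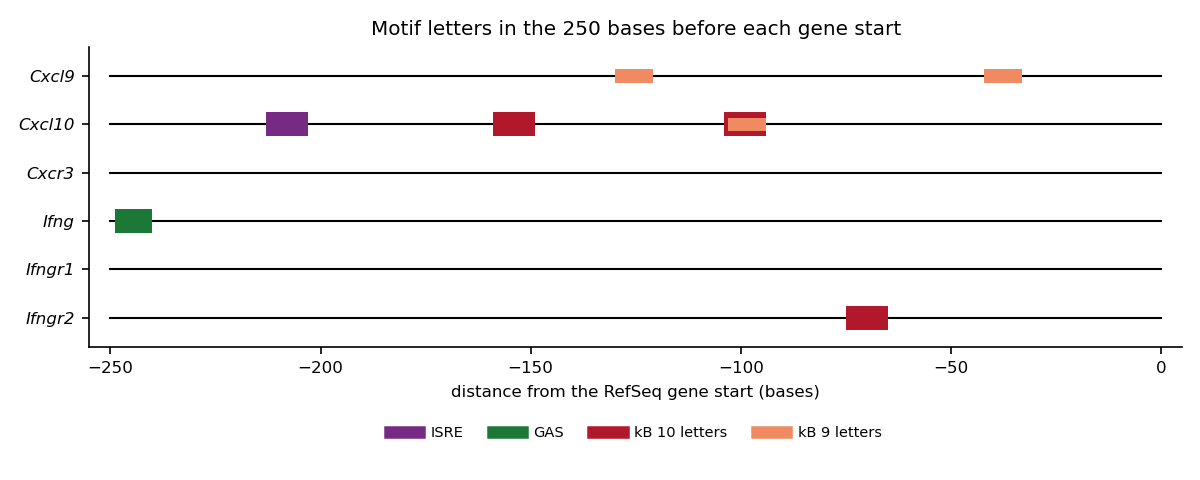
Positions of motif matches in the 250 bases before the RefSeq start of each gene; the horizontal axis is the distance from the start in bases and coloured boxes are matches. Cxcl10 carries 1 ISRE and 2 kB matches of 10 letters, Cxcl9 carries 2 kB matches of 9 letters, and Cxcr3 and Ifngr1 carry none of the 4 motifs.

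Cxcl9 was lower in the spleen after AC H6 than after isotype. It had 18.3, 19.0 and 19.7 CPM in the AC H6 spleens, against 22.7, 23.3 and 23.7 CPM in the isotype spleens. Every AC H6 library lay below every isotype library, with a log2 fold change of -0.29 ± 0.06 (SE, n = 3 each), a level 0.819 times that of isotype. Groups of 3 that do not overlap were common in spleen, 32.7% of the genes tested. In the duodenum Cxcl9 was higher after AC H6. There it had 7.80, 10.04 and 10.8 CPM after AC H6, against 3.03, 2.90 and 3.46 CPM after isotype. The duodenum groups did not overlap, as for 50.0% of the genes tested there, and the fold was 3.10 (log2 1.63 ± 0.16, SE, n = 3 each). The Cxcl9 effect in duodenum minus that in spleen was 1.90 ± 0.16 on the log2 scale.

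Cxcl10 was higher after AC H6 in both tissues. In spleen it had 29.0, 30.1 and 29.4 CPM after AC H6, against 17.3, 15.4 and 19.8 CPM after isotype. That is a fold of 1.69 (log2 0.76 ± 0.09, SE, n = 3 each). The AC H6 group lay above the isotype group without overlap, as for 15.5% of the genes tested in spleen. In duodenum it had 13.4, 15.6 and 14.4 CPM after AC H6, against 2.31, 2.07 and 2.63 CPM after isotype. That fold was 6.28 (log2 2.65 ± 0.12, SE, n = 3 each). Every AC H6 library lay above every isotype library, as for 23.7% of the genes tested in duodenum. The effect in duodenum minus that in spleen was 1.87 ± 0.15 on the log2 scale, close to the 1.90 of Cxcl9. Cxcl10 lies inside Art3, a gene on the opposite strand that shares 133 exon bases with it, and the library kit did not mark strand. Art3 averaged 2.74 ± 0.32 CPM in AC H6 spleens and 2.51 ± 0.15 CPM in isotype spleens (SD, n = 3 each). In duodenum Art3 averaged 6.49 ± 0.62 CPM after AC H6 and 6.82 ± 0.91 CPM after isotype, so Art3 levels overlapped between treatments in both tissues.

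**Figure D2:**
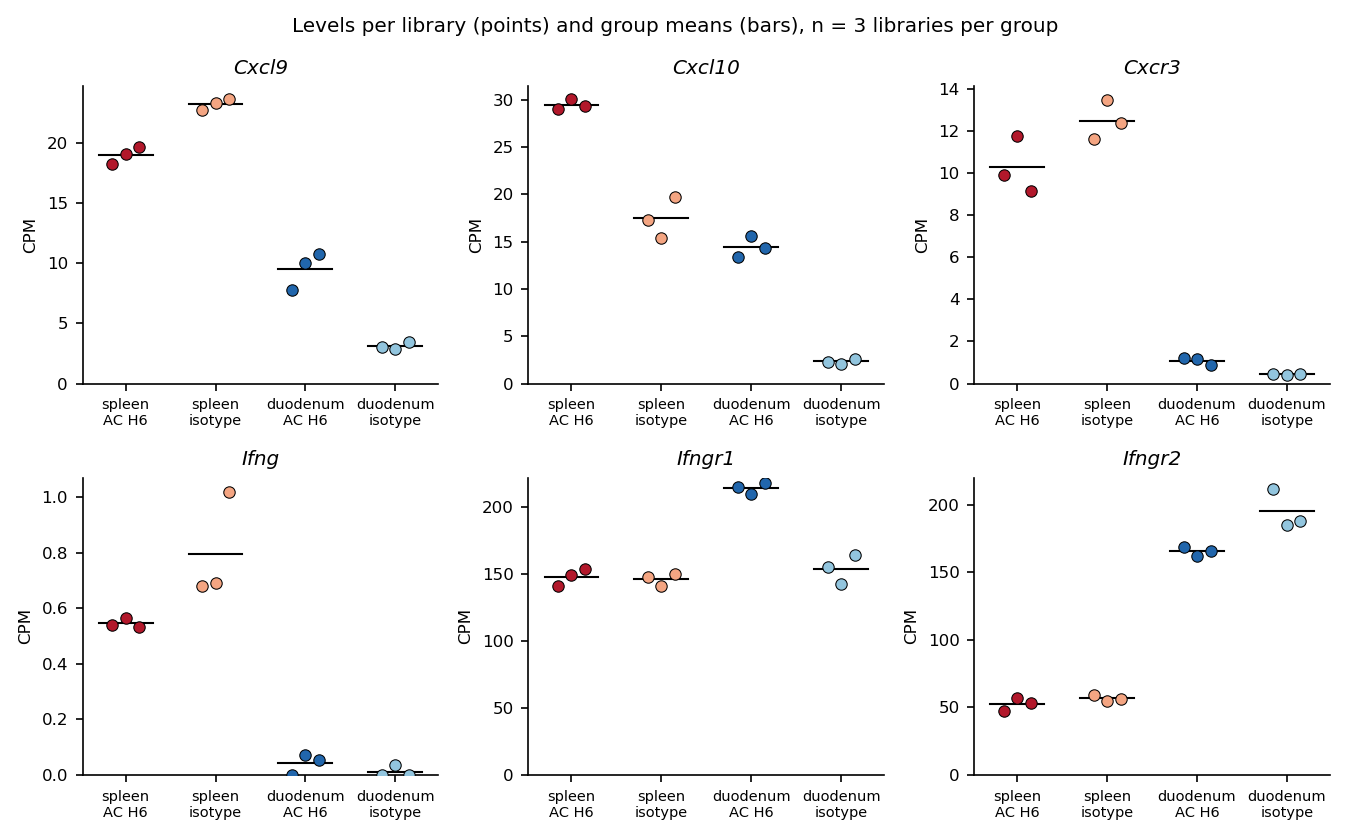
Level of each of the 6 genes in CPM (vertical axes, each from 0) in the 12 libraries, by tissue and treatment; points are libraries and bars are means of 3. Cxcl9 after AC H6 is below isotype in spleen and above it in duodenum, Cxcl10 is above isotype in both, and Ifng has at most 2 counts in any duodenum library.

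The balance between the chemokines can be read within a library, where no scaling enters. There were 1.59, 1.58 and 1.49 Cxcl10 counts per Cxcl9 count in AC H6 spleens, against 0.763, 0.662 and 0.834 in isotype spleens. In duodenum there were 1.72, 1.55 and 1.33 after AC H6, against 0.763, 0.714 and 0.761 after isotype. Cxcl10 was thus the larger count in all 6 AC H6 libraries and the smaller in all 6 isotype libraries. The mean ratios were 1.55 ± 0.05 and 0.753 ± 0.086 in AC H6 and isotype spleens (SD, n = 3 each). In duodenum they were 1.53 ± 0.20 after AC H6 and 0.746 ± 0.028 after isotype (SD, n = 3 each). On the log2 scale AC H6 moved the mean ratio by 1.05 in spleen and 1.03 in duodenum, a description of the contrast that chose the genes.

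The rule did not use the ratio between tissues. An exact two-sided permutation test of duodenum against spleen gave p = 0.9 under isotype and p = 0.8 under AC H6, where the smallest p this design allows is 0.1. Those p-values do not show that the ratios are equal, and single-library 95% exact counting intervals were wide in duodenum, 0.506 to 1.14 in isotype replicate 1 for example. Per kilobase of the principal transcript, the Cxcl10 level was 4.10 ± 0.14 times that of Cxcl9 in AC H6 spleens and 1.99 ± 0.23 times in isotype spleens (SD, n = 3 each). The same per-kilobase level ratio was 4.05 ± 0.52 in AC H6 duodenum and 1.97 ± 0.07 in isotype duodenum.

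**Figure D3:**
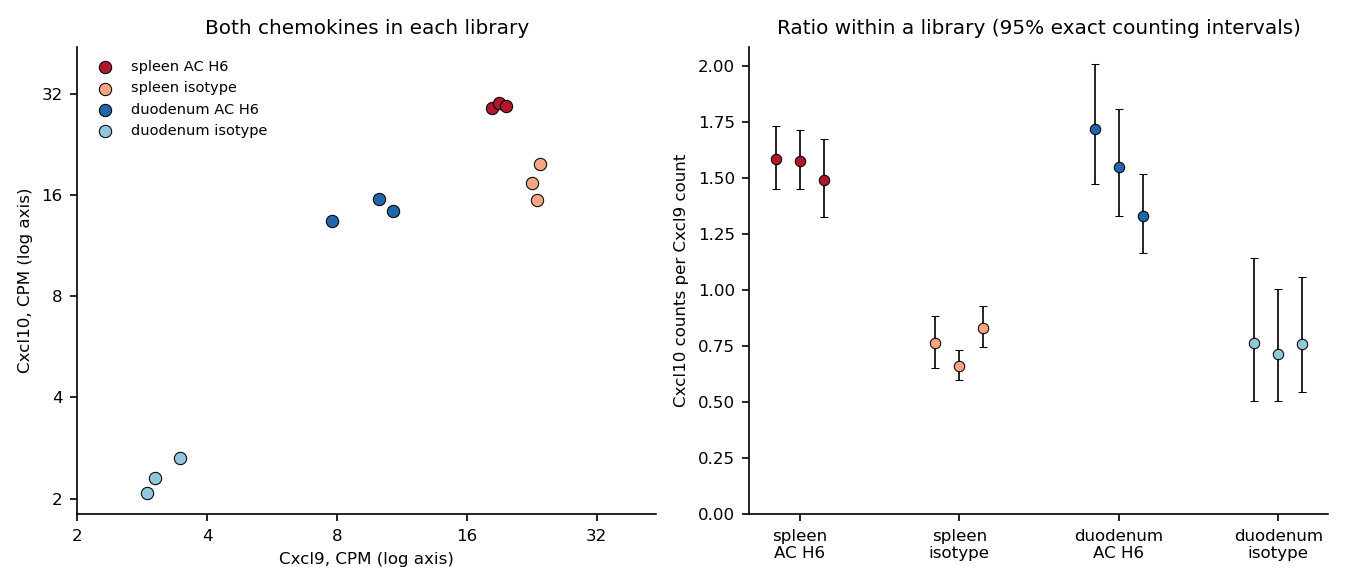
Left, Cxcl10 against Cxcl9 in CPM on log axes, 1 point per library; right, Cxcl10 counts per Cxcl9 count in each library with 95% exact counting intervals. The 6 AC H6 libraries lie between 1.33 and 1.72 counts of Cxcl10 per count of Cxcl9 and the 6 isotype libraries between 0.662 and 0.834, in either tissue.

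Cxcl11 encodes the third CXCR3 chemokine, whose reading frame is known to be broken in C57BL/6 mice, and lies next to Cxcl10 at chr5:92359544-92365485. In duodenum it had 2.27, 2.46 and 2.38 CPM after AC H6, against 0.872, 0.242 and 0.393 CPM after isotype. Every AC H6 library was higher than every isotype library, as for 23.7% of the genes tested in duodenum. The fold of 5.10 passed the test (log2 2.35 ± 0.34 (SE), adjusted p = 0.00135, edgeR quasi-likelihood test with Benjamini-Hochberg adjustment over all genes tested, used for every adjusted p below). In spleen it held 3, 2 and 2 counts after AC H6 and 0, 2 and 4 counts after isotype, too few for the filter, with a ratio of CPM of 0.877 (95% exact counting interval 0.252 to 3.16). Of other genes on the CXCR3 axis, Pf4, a platelet chemokine, was higher after AC H6 in spleen (0.89 ± 0.14, adjusted p = 0.0251) and in duodenum (1.00 ± 0.14, adjusted p = 0.00109). Dpp4, the protease that trims these chemokines, was lower in spleen (-0.28 ± 0.06, adjusted p = 0.0476) and in duodenum (-0.50 ± 0.10, adjusted p = 0.00619). A limit on every spleen call given here is that, over all genes, 315 called higher and 293 called lower became 12 and 2 without isotype replicate 1.

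Of the 4 genes whose treatment change did not choose them, 3 could be tested in duodenum and 2 were called at an adjusted p under 0.05, both higher after AC H6. The share of all 15667 genes tested that was called higher in duodenum was 18.5%, and 34.6% were called in either direction. In spleen edgeR called none of the 4, against 3.98% of 15270 genes tested (1.92% lower). Before adjustment 2 of the 4, Cxcr3 and Ifng, were under 0.05, with edgeR adjusted p of 0.157 and 0.178. The share of all spleen genes under 0.05 before adjustment was not counted, so no decrease is read from these 2. Neither DESeq2 nor limma-voom called any of the 4 in spleen.

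Cxcr3, the receptor of both chemokines, lies on the minus strand at chrX:101731535-101734269. It was higher after AC H6 in duodenum, where it had 40, 32 and 33 counts after AC H6, against 9, 12 and 11 counts after isotype. In CPM these were 1.195, 1.16 and 0.892 after AC H6, against 0.462, 0.415 and 0.432 after isotype. The AC H6 group lay above the isotype group without overlap, as for 23.7% of the genes tested in duodenum. The fold was 2.51 (log2 1.32 ± 0.23 (SE), adjusted p = 0.00361). In spleen, where it was far more abundant, Cxcr3 had 9.89, 11.7 and 9.17 CPM after AC H6, against 11.6, 13.5 and 12.4 CPM after isotype. The spleen groups overlapped and the change was not called (log2 -0.28 ± 0.11 (SE), adjusted p = 0.157). The Cxcr3 effect in duodenum exceeded that in spleen by 1.58 ± 0.24 on the log2 scale (adjusted p = 0.00101), in a test that called 10.9% of 16655 genes in that direction, 9.13% in the other and 20.0% in all.

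T cells are among the cells that carry CXCR3, and their markers were measured beside it. Of 15 T cell markers, 5 were called higher, none lower and 10 not called in duodenum (median log2 0.51), where 18.5% of all genes were called higher and the median of all was 0.01. In spleen none was called higher, 4 lower and 11 not (median -0.34), where 1.92% of all genes were called lower and the median of all was 0.00. Their summed level was 73.0 to 77.1 CPM in AC H6 duodenum and 58.4 to 63.4 CPM in isotype duodenum, and none was at 0 throughout. In spleen it was 726 to 807 CPM after AC H6 and 885 to 1034 CPM after isotype. Among these, Cd6 (1.33 ± 0.23, adjusted p = 0.00349) and Cd4 (0.51 ± 0.09, adjusted p = 0.00401) rose in duodenum, and Cd3e (-0.43 ± 0.06, adjusted p = 0.0209) and Cd28 (-0.47 ± 0.08, adjusted p = 0.0287) fell in spleen. The 4 spleen calls were lost on leaving out any 1 library except AC H6 replicate 2, without which there were 5. As for Cxcr3, the effect in duodenum was called above that in spleen for 12 of the 15 markers (median log2 difference 0.74). It was called below that in spleen for none, and 10.9% of all genes were called above. Bulk RNA cannot tell fewer cells of a type from less RNA per cell.

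Relative to the summed counts of those markers, Cxcr3 stood at 16.4, 15.1 and 11.6 counts per 1000 in AC H6 duodenum, against 7.90, 6.72 and 6.82 in isotype duodenum. These groups did not overlap (means 14.3 ± 2.5 and 7.15 ± 0.65 in AC H6 and isotype, SD, n = 3 each; exact two-sided permutation p = 0.1, the smallest this design allows). In spleen the same ratio was 12.6, 14.5 and 12.6 after AC H6, against 13.1, 14.3 and 11.96 after isotype, and the groups overlapped (exact two-sided permutation p = 0.9). Counting error is large in duodenum, since a single isotype library held 9 to 12 Cxcr3 counts. Natural killer and cytotoxic lymphocyte markers, whose cells can carry CXCR3 and may overlap with the T cells above, had a summed level of 111 to 116 CPM in AC H6 duodenum and 101 to 107 CPM in isotype duodenum. Of the AC H6 duodenum sum, Gzmb averaged 27.2 and Ccl5 21.1 CPM, but Klrk1 1.14, Prf1 0.698 and Ncr1 0.334 CPM. Gzmk was at 0 in every isotype duodenum library. The sum therefore does not separate natural killer cells from T cells. In spleen that sum was 197 to 213 CPM after AC H6 and 213 to 240 CPM after isotype. Of the 13 markers, 2 of 9 tested were called higher in duodenum (Ccl5 and Prf1), a share near the 18.5% of all genes. In spleen Gzmb was higher and Klrd1 lower of 12 tested, where 2.06% of all genes were called higher and 1.92% lower. The part of these cells in the Cxcr3 change was not tested.

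Ifng, the interferon gamma gene at chr10:118441046-118445892 on the plus strand, was near the limit of counting in duodenum. It had 0, 2 and 2 counts in AC H6 duodenum, against 0, 1 and 0 counts in isotype duodenum. It did not pass the filter there, and the ratio of 3.01 had a 95% exact counting interval of 0.298 to 148, so a change of Ifng was not detectable at this depth. A count of 3 over the group would correspond to 0.0306 CPM in AC H6 duodenum and 0.0406 CPM in isotype duodenum. In spleen Ifng had 24, 28 and 13 counts after AC H6, against 12, 29 and 30 counts after isotype. In CPM these were 0.538, 0.566 and 0.532 after AC H6, against 0.681, 0.690 and 1.02 after isotype. Every AC H6 spleen was lower than every isotype spleen in CPM, as for 17.2% of the genes tested in spleen. The change was not called (log2 -0.54 ± 0.23 (SE), adjusted p = 0.178). Per 1000 T cell marker counts, Ifng was 0.706 ± 0.025 in AC H6 spleens and 0.830 ± 0.137 in isotype spleens (SD, n = 3 each; exact two-sided permutation p = 0.2).

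Genes that drive interferon gamma production were examined as a list of 16 cytokines, receptors and transcription factors. In duodenum 3 of 12 tested were called higher and 1 lower (median log2 0.31), a share near that of all genes (18.5% higher and 16.1% lower). The interleukin 18 receptor gene Il18r1 rose (0.80 ± 0.15, adjusted p = 0.00511), as did Tbx21, which encodes the T-bet factor of interferon-producing lymphocytes (0.88 ± 0.21, adjusted p = 0.0123), and Il2rb (0.34 ± 0.10, adjusted p = 0.0344). Il15, a growth factor of natural killer and intraepithelial lymphocytes, fell in duodenum (-0.49 ± 0.08, adjusted p = 0.00282). In spleen 1 of 16 was called, where 3.98% of all genes were. It was Il18r1, which averaged 15.5 CPM after AC H6 and 28.1 CPM after isotype (log2 -0.86 ± 0.11, adjusted p = 0.0164). The effects on Il18r1 differed between duodenum and spleen by 1.63 on the log2 scale (adjusted p = 2.09e-04). Those on Cxcl9, Cxcl10, Cxcr3 and Ifngr1 differed in the same direction, for Cxcl9 and Cxcl10 without a test. Of the 16 genes, 6 were called with an effect in duodenum above that in spleen and 1 with an effect below it. Of all genes, 10.9% and 9.13% were called in those directions.

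The chains of the interferon gamma receptor did not move together in duodenum. Ifngr1, the ligand-binding chain at chr10:19591949-19610229, had 215, 210 and 218 CPM in AC H6 duodenum, against 155, 142 and 164 CPM in isotype duodenum. The AC H6 group lay above the isotype group without overlap, as for 23.7% of the genes tested there. The fold was 1.42 (log2 0.50 ± 0.07 (SE), adjusted p = 0.00157). In spleen Ifngr1 had 141, 150 and 154 CPM after AC H6, against 148, 141 and 150 CPM after isotype, and the groups overlapped (log2 0.02 ± 0.06 (SE), adjusted p = 0.842). Its effect was larger in duodenum than in spleen by 0.46 ± 0.09 on the log2 scale (adjusted p = 0.00326).

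Ifngr2, the signalling chain at chr16:91547072-91565623, had 169, 162 and 165 CPM in AC H6 duodenum, against 212, 185 and 188 CPM in isotype duodenum. Every AC H6 library was below every isotype library, as for 26.3% of the genes tested in duodenum. The change narrowly missed the threshold (log2 -0.22 ± 0.07 (SE), adjusted p = 0.0509). It passed under 9 of the alternatives tried, among them DESeq2 (adjusted p = 0.0123) and limma-voom (adjusted p = 0.0275). In spleen Ifngr2 had 47.4, 56.8 and 53.0 CPM after AC H6, against 59.0, 54.9 and 56.5 CPM after isotype, and the groups overlapped (log2 -0.11 ± 0.07 (SE), adjusted p = 0.358). The effects on Ifngr2 in duodenum and spleen differed by -0.12 ± 0.10 (SE), a difference that was not called (adjusted p = 0.443).

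Within a library, there were 1.27, 1.30 and 1.32 Ifngr1 counts per Ifngr2 count in AC H6 duodenum, against 0.732, 0.768 and 0.874 in isotype duodenum. The ratio was thus above 1 in each AC H6 duodenum and below 1 in each isotype duodenum (exact two-sided permutation p = 0.1, the smallest this design allows). In spleen it was 2.97, 2.63 and 2.90 after AC H6, against 2.51, 2.57 and 2.66 after isotype, with overlap (exact two-sided permutation p = 0.2). Per kilobase, the Ifngr1 level exceeded that of Ifngr2 in all groups, from 1.39 ± 0.13 times in isotype duodenum to 4.98 ± 0.31 times in AC H6 spleen (SD, n = 3 each).

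**Figure D4:**
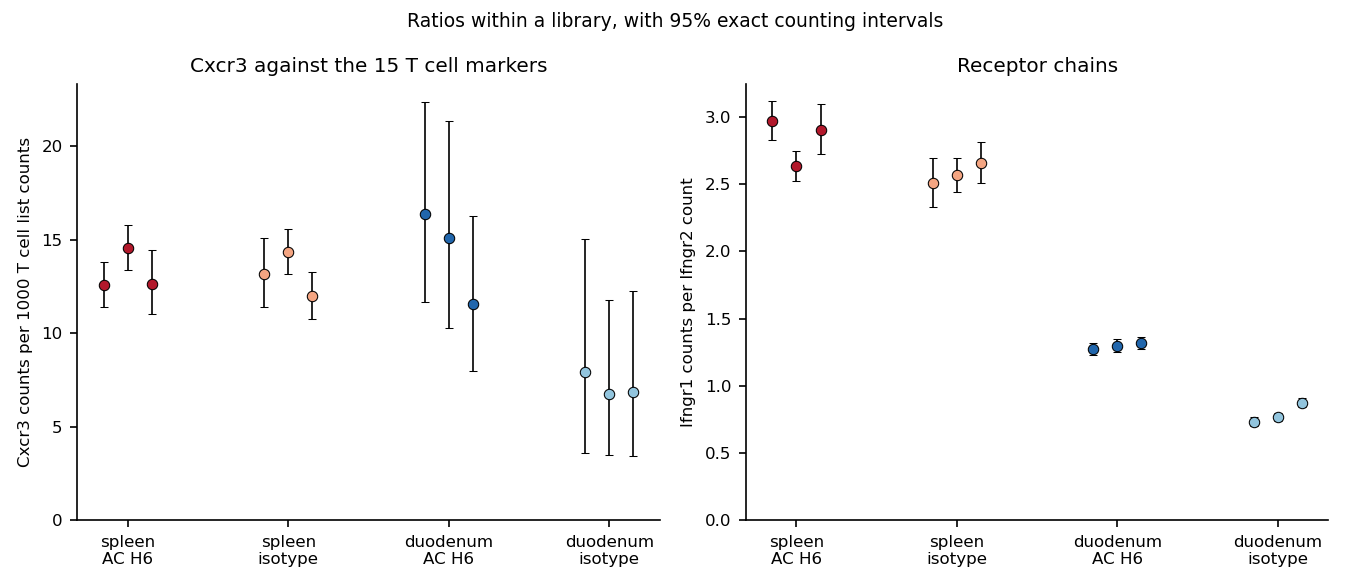
Left, Cxcr3 counts per 1000 counts of 15 T cell markers; right, Ifngr1 counts per Ifngr2 count; 1 point per library, with 95% exact counting intervals, by tissue and treatment. In duodenum both ratios are higher in all 3 AC H6 libraries than in all 3 isotype libraries, while the spleen groups overlap in both.

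Without the agonist, the tissues differed widely in most of these genes, as they did for 86.0% of 16029 genes tested (42.2% higher and 43.8% lower in duodenum). Isotype duodenum held 3.13 ± 0.29 CPM of Cxcl9 and isotype spleen 23.2 ± 0.5 CPM (SD, n = 3 each), a log2 difference of -2.92 ± 0.09 (adjusted p = 1.25e-08). Cxcl10 was lower in isotype duodenum by nearly the same amount, -2.93 ± 0.14 (adjusted p = 1.79e-07), and Cxcr3 by more, -4.86 ± 0.14 (adjusted p = 7.80e-09). Ifng held 1 count over the isotype duodenum libraries and 71 over the isotype spleens, a ratio of CPM of 0.0170 (95% exact counting interval 4.24e-04 to 0.0977). Its receptor chains differed from this pattern. Ifngr2 was higher in isotype duodenum by 1.76 ± 0.07 on the log2 scale (adjusted p = 4.10e-08), and Ifngr1 did not differ beyond its error (0.05 ± 0.06, adjusted p = 0.485).

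After AC H6 the chemokines stood closer between tissues, in a comparison that called 84.7% of genes tested (42.0% higher and 42.7% lower in duodenum). For Cxcl9 and Cxcl10 that narrowing restates the treatment changes that chose them, so it is a description without a test. The adjusted p-values below are for levels under AC H6 alone. Cxcl9 was lower in AC H6 duodenum than in AC H6 spleen by -1.01 ± 0.12 (adjusted p = 4.39e-05) and Cxcl10 by -1.05 ± 0.08 (adjusted p = 1.67e-06). For Cxcr3 the difference was -3.28 ± 0.17 (adjusted p = 1.74e-07), and for Ifngr1 0.51 ± 0.07 (adjusted p = 1.04e-04). Ordered by level per kilobase, isotype spleen ran Ifngr1 at 69.3, Cxcl10 at 15.99, Ifngr2 at 15.3, Cxcl9 at 8.04, Cxcr3 at 7.22 and Ifng at 0.660 CPM per kilobase. Of those neighbours, Cxcl10 at 15.99 ± 1.99 and Ifngr2 at 15.3 ± 0.6 did not differ beyond their spread (SD, n = 3 each). In AC H6 duodenum the order was Ifngr1 at 102, Ifngr2 at 44.6, Cxcl10 at 13.2, Cxcl9 at 3.30, Cxcr3 at 0.625 and Ifng at 0.0349 CPM per kilobase. In AC H6 spleen, Cxcl9 at 6.58 ± 0.25 and Cxcr3 at 5.93 ± 0.77 CPM per kilobase were neighbours that did not differ beyond their spread (SD, n = 3 each).

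Downstream of the receptor, a list of 12 signalling genes showed 3 higher and 1 lower in duodenum (median log2 -0.01, against 0.01 over all genes) and none called in spleen. The share called in duodenum was near the 34.6% of all genes called in either direction. In spleen 3.98% of all genes were called, so none of 12 was near that share too. Socs1, an inhibitor of the JAK kinases, rose in duodenum to 4.68 ± 0.57 CPM after AC H6, against 1.88 ± 0.21 CPM after isotype (SD, n = 3 each; log2 1.34 ± 0.16, adjusted p = 5.50e-04). The MHC transactivator genes Nlrc5 (class I, 1.22 ± 0.11, adjusted p = 1.18e-04) and Ciita (class II, 0.94 ± 0.09, adjusted p = 2.31e-04) rose as well. Jak2 fell in duodenum (-0.32 ± 0.09, adjusted p = 0.0232). Jak1 (0.18 ± 0.07, adjusted p = 0.0622) and Irf1, an early target gene of interferon gamma (-0.02 ± 0.10, adjusted p = 0.923), were not called. In spleen the corresponding values were -0.03 ± 0.15 for Socs1 (adjusted p = 0.917) and -0.18 ± 0.08 for Irf1 (adjusted p = 0.180).

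Of 26 interferon gamma responsive genes other than the chemokines, 24 were called higher in duodenum and none lower, with a median log2 fold change of 0.78 against 0.01 over all genes. Of all genes tested there, 18.5% were called higher. The list shares Socs1, Irf1 and Ciita with the signalling list. Cd74, the MHC class II chaperone, had 724 ± 24 CPM after AC H6 and 398 ± 12 CPM after isotype (SD, n = 3 each; log2 0.89 ± 0.06, adjusted p = 2.58e-05). The guanylate-binding protein genes Gbp3 (1.26 ± 0.08, adjusted p = 3.17e-05), Gbp5 (1.36 ± 0.12, adjusted p = 1.42e-04) and Gbp6 (1.40 ± 0.13, adjusted p = 1.48e-04), which act against intracellular microbes, rose together. The exceptions were Irf1 and the immunoproteasome subunit gene Psmb10 (0.13, adjusted p = 0.210), named after its value was seen. In spleen the same list had 1 gene higher and 1 lower of 25 tested, with a median of -0.02. Of all genes tested in spleen, 2.06% were called higher and 1.92% lower. Nos2, the inducible nitric oxide synthase gene, was higher (0.81 ± 0.12, adjusted p = 0.0251) and Gbp4 was lower (-0.31 ± 0.06, adjusted p = 0.0387). Leaving out any 1 spleen library other than AC H6 replicate 2 left 0 of these genes called. The effect in duodenum exceeded that in spleen for 22 of the 26 and fell below it for none, where 10.9% of all genes were called in that direction.

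Type I interferon stimulated genes, 22 in number, were called higher in both tissues, 18 of 22 in duodenum (median log2 1.03) and 6 of 22 in spleen (median 0.52), and lower in neither. Of all genes tested, 18.5% were called higher in duodenum (median 0.01) and 2.06% in spleen (median 0). Oas1a, an antiviral oligoadenylate synthetase gene, averaged 38.4 ± 4.3 CPM in AC H6 spleens and 20.6 ± 2.1 CPM in isotype spleens (SD, n = 3 each; log2 0.89 ± 0.10, adjusted p = 0.0113). Oasl2 (0.79 ± 0.12, adjusted p = 0.0251), Ifit1 (0.71 ± 0.13, adjusted p = 0.0355) and Oas2 (0.77 ± 0.16, adjusted p = 0.0455) were also higher in spleen. In duodenum Bst2, the membrane protein tetherin, rose (1.43 ± 0.07, adjusted p = 7.89e-06), as did Isg15 (1.42 ± 0.10, adjusted p = 5.05e-05) and Irf7 (1.08 ± 0.08, adjusted p = 5.72e-05). The difference between tissues was called for 3 of the 22, all larger in duodenum, a share near the 10.9% of all genes called in that direction. The 6 spleen calls became 0 without isotype replicate 1, 1 or 2 on leaving out each of 4 other libraries and 9 without AC H6 replicate 2. The type I interferon genes Ifnb1, Ifna1, Ifna2, Ifna4 and Ifna5 had 0 counts in all 12 libraries. Their receptor gene Ifnar2 rose in duodenum (0.54 ± 0.07, adjusted p = 6.58e-04) and was not called in spleen (0.09 ± 0.06, adjusted p = 0.346).

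**Figure D5:**
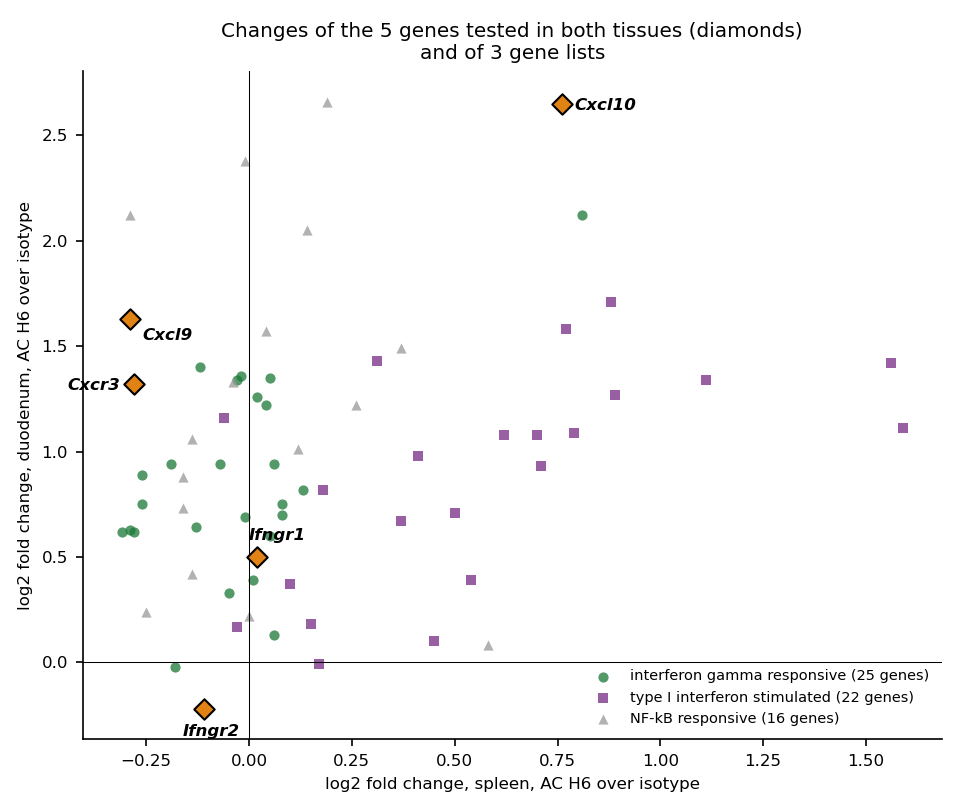
Log2 fold change in duodenum (vertical axis) against that in spleen (horizontal axis), AC H6 over isotype, for the 5 genes tested in both tissues (diamonds) and for the genes of 3 lists tested in both. Most interferon gamma responsive genes (circles) and NF-kB responsive genes (triangles) spread upward near 0 on the spleen axis. Type I interferon stimulated genes (squares) spread upward too and extend to the right. Cxcl10 is right of 0 while Cxcl9 is left of it.

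Of 19 NF-kB responsive genes listed, 15 of 17 tested were called higher in duodenum (median log2 1.22), where 18.5% of all genes were. In spleen 1 of 16 was called higher (median -0.01), where 2.06% of all genes were, and none was lower in either tissue. The interaction test called a larger effect in duodenum for 12 of 17 and a smaller one for none, where 10.9% of all genes were called larger. Nfkb2, itself a component of the alternative NF-kB pathway, had 199 CPM after AC H6 and 32.1 CPM after isotype in duodenum (log2 2.66 ± 0.08, adjusted p = 4.68e-07). The adhesion molecule genes Icam1 (2.38 ± 0.06, adjusted p = 2.26e-07), Madcam1 (2.12 ± 0.13, adjusted p = 2.71e-05) and Vcam1 (1.22 ± 0.06, adjusted p = 6.78e-06) rose with it. In spleen the gene called was Il1b (0.58 ± 0.12, adjusted p = 0.0470), and that call was lost on leaving out any 1 library.

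Myeloid cells are a main source of both chemokines, and their markers were measured beside them. The summed level of 12 macrophage and monocyte markers was 716 to 776 CPM in AC H6 duodenum and 511 to 572 CPM in isotype duodenum. In spleen that sum was 2428 to 2539 CPM after AC H6 and 1938 to 2107 CPM after isotype, so it was higher after AC H6 in both tissues. Of those 12 markers, 11 were called higher in duodenum and 5 in spleen, and none lower. Among all genes tested, 18.5% were called higher in duodenum and 2.06% in spleen. Ccr2, the receptor of inflammatory monocytes, had 11.9 CPM after AC H6 and 1.76 CPM after isotype in duodenum (log2 2.77 ± 0.13, adjusted p = 5.36e-06). The summed level of 11 dendritic cell markers was 68.3 to 74.4 CPM in AC H6 duodenum and 41.1 to 44.97 CPM in isotype duodenum. In spleen it was 353 to 393 CPM after AC H6 and 418 to 467 CPM after isotype, lower in every AC H6 library. Of these 11 markers, 8 were called higher and 1 lower in duodenum, against 18.5% and 16.1% of all genes. In spleen 2 were called lower, against 1.92% of all genes. The marker called lower in duodenum was Cd209a (-1.55 ± 0.24, adjusted p = 0.00181), which was also lower in spleen (-1.02 ± 0.14, adjusted p = 0.0209) and is named after its values were seen. Neutrophil markers summed to 98.3 to 117 CPM in AC H6 duodenum and 58.0 to 62.9 CPM in isotype duodenum, and to 1585 to 2268 CPM in AC H6 spleen and 533 to 822 CPM in isotype spleen. Of the duodenum sums, Mmp9 alone averaged 64.4 CPM after AC H6 and 26.9 CPM after isotype, and S100a8 0.949 and 0.360 CPM. In duodenum 5 of 9 tested were called higher and 1 lower, and in spleen 10 of 11 were called higher. B cell markers, 11 in number, summed to 23.3 to 24.4 CPM in AC H6 duodenum and 16.6 to 18.4 CPM in isotype duodenum, and to 2926 to 3385 CPM in AC H6 spleen and 3654 to 4004 CPM in isotype spleen.

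Markers of the duodenal tissue itself also moved with treatment. The 12 enterocyte markers, whose sum was lower in every AC H6 duodenum library, had 7 called lower and 2 higher, where 16.1% of all genes were called lower. The summed level of 10 stromal markers was 1804 to 2047 CPM in AC H6 duodenum and 1443 to 1545 CPM in isotype duodenum. Of the 10, 6 were called higher and none lower, where 18.5% of all genes were called higher. None of the macrophage, dendritic, neutrophil, B cell, enterocyte and stromal lists had a marker at 0 in every library of a group. The part of any of these cells in the changes of the chemokine, receptor and interferon genes was not tested.

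The genes most like each chemokine were found by the Pearson correlation of log2 CPM over the 12 libraries after subtraction of each tissue mean, among 10957 genes. Nearest to Cxcl9 were Pglyrp2 (r = 0.984), Gbp6 (0.983), Scn2b (0.982), Nlrc5 (0.980) and Gbp10 (0.979). Nearest to Cxcl10 were Rhbdl3 (0.989), Plxnb1 (0.988), Adam8 (0.988), Rab32 (0.987) and Dok2 (0.984). The 5 genes nearest to Cxcl9 had log2 fold changes of -0.20 to -0.11 in spleen and 1.22 to 2.11 in duodenum, and the 5 nearest to Cxcl10 had 0.24 to 0.56 in spleen and 0.90 to 2.59 in duodenum. Cxcl9 and Cxcl10 themselves had r = 0.883 by this measure. These points share the treatment groups and the library depths, and the correlations are a description. Treatment differences entered the correlations that picked these genes, so the fold changes above follow largely from the pick and are no separate result.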

How the data were processed

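RNA was sequenced from spleen and duodenum after AC H6 or isotype, in 4 groups of 3 libraries taken from the tissue and treatment labels. The submitters' processing notes name mm10, STAR 2.3, Trimmomatic, bcl2fastq 2.19 and edgeR, with no counting tool or annotation. The authors deposited whole-number read counts per gene that, per the file headers, keep reads with several matches, so counts of close paralogs such as the Gbp, Tgtp and MHC genes are uncertain. Per the labels' protocols, the TruSeq kit used does not mark strand.

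From these counts, edgeR 4.0.16 (R 4.3.3) gave TMM factors, CPM and quasi-likelihood F-tests after filterByExpr. Treatment was fitted within each tissue on 6 libraries, tissue within each treatment, and the interaction on all 12. Calls are at an adjusted p under 0.05 (Benjamini-Hochberg, all genes tested), and SE is the log2 fold change divided by the square root of F. Levels per kilobase use the GENCODE M21 principal transcript, an annotation that may differ from that of the authors. Exact intervals cover counting error only. The fits were tested on simulated data.

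The members, the 22 gene lists, tests and alternatives were chosen with earlier results of these data known. Named are the members, Cxcl11, Jak1, Jak2, Irf1 and Socs1, up to 4 genes of smallest p per list described and tissue, and 5 genes most like each chemokine. Of 263 list entries, 7 had no row of that name. 1 further gene of these lists is not reported here. Alternatives were other size factors, other filters, DESeq2 1.42.0, limma 3.58.1, removal of abundant genes, a replicate block, 1 fit of all libraries and leaving out each library. No 2 libraries of a group held near-identical counts.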

Additional observations from a re-analysis of the deposited data

Results flagged for a closer look

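Cxcl9 was lower after AC H6 than after isotype in every spleen library and higher in every duodenum library, and its effect in duodenum minus that in spleen was 1.90 on the log2 scale. That difference was not tested, because the contrast chose the gene. The other differences between tissues given here passed edgeR's quasi-likelihood interaction test with Benjamini-Hochberg adjustment, and each value is the log2 effect of AC H6 in duodenum minus that in spleen. Genes that did not pass are left out. Apart from the members, Cxcl11, Jak1, Jak2, Irf1 and Socs1, 23 of 36 named list genes were called, where 20.0% of all genes were. Those 36 had been named for the smallest p-values of their lists in the same libraries, so that share is a description.

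Among the receptors, Cxcr3 (1.58, adjusted p = 0.00101) and Ifngr1 (0.46, adjusted p = 0.00326) had larger effects in duodenum. In interferon gamma signalling, Socs1 (1.35), Nlrc5 (1.37) and Ciita (1.11) were above 0, while Jak2 (-0.41) and Ptpn11 (-0.21) were below it. Among interferon gamma responsive genes the values were Nos2 (1.29), Gbp3 (1.22), Gbp4 (0.91), Gbp5 (1.36), Gbp6 (1.5), Cd74 (1.13) and H2-Ab1 (0.99). Of these 7 genes, Gbp4 was called lower in spleen (log2 -0.31) and Nos2 higher (0.81), and the other spleen values, none of them called, were -0.26 for H2-Ab1, -0.26 for Cd74, -0.12 for Gbp6, -0.02 for Gbp5 and 0.02 for Gbp3.

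Of the type I interferon stimulated genes named, Oas2 (0.79) and Bst2 (1.10) differed, as did the receptor genes Ifnar1 (0.38) and Ifnar2 (0.44). Among the inducers of interferon gamma named here, the values were Il18r1 (1.63), Il12rb1 (0.73), Tbx21 (0.84) and Il15 (-0.77). Over the whole list of 16 inducers, 6 were called above 0 and 1 below it, so not every called inducer is named. Of all genes, 10.9% were called above 0 and 9.13% below it. NF-kB responsive genes gave Vcam1 (0.94), Madcam1 (2.39), Icam1 (2.37), Nfkb2 (2.45) and Ccl5 (0.47).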

How the results depend on the processing

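The 6 genes kept the direction of every called or chosen change under all alternatives tried, and of 787 recomputed values 717 stayed on their side of the threshold or within 1.5 times the count, 61 counts moved further and 9 passed newly. Those 9 are all Ifngr2 in duodenum (-0.22, adjusted p = 0.0509): it was called with other size factors (-0.23), the stricter filter (-0.20), DESeq2 (-0.22), limma-voom (-0.21), without abundant genes (-0.22), in 1 fit of all libraries (-0.24), with the replicate block (-0.21), and on leaving out isotype replicate 2 or AC H6 replicate 3, with a range of -0.25 to -0.15 over all 6 left-out libraries. Leaving out 1 library moved Cxcl9 between -0.31 and -0.26 in spleen and 1.53 and 1.76 in duodenum, and Cxcl10 between 0.67 and 0.86 and between 2.56 and 2.75.

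Counts of spleen calls depended on the fit. Over all genes, 315 were higher and 293 lower; DESeq2 called 816 and 540, 1 fit of all libraries 781 and 609, and leaving out a library gave 12 to 575 and 2 to 557. Type I interferon stimulated genes called higher were 15 by DESeq2, 14 in 1 fit of all libraries and 0 to 9 on leaving out a library. Interferon gamma responsive genes called lower were 5 by DESeq2, 5 in 1 fit of all libraries, 2 without a filter and 0 to 6 on leaving out a library, and those called higher 0 to 1. T cell marker genes called lower, 4 in the reported fit, were 10 by DESeq2 and 0 to 5 on leaving out a library. NF-kB responsive genes called higher, 1 in the reported fit, were 2 by DESeq2, 2 in 1 fit of all libraries and 0 on leaving out any 1 library, and those called lower, 0 in the reported fit, were 1 in 1 fit of all libraries and 0 to 1 on leaving out a library. Genes with a lower effect in duodenum than in spleen were 1521, and 943 to 1763 on leaving out a library. A fit that leaves out a library has fewer degrees of freedom; the other causes were not tested.

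The labels do not say that replicate numbers pair libraries. Same-numbered libraries correlated by -0.16 to 0.34 in their deviations, not all over 0.1, so the numbers were not used as pairs. With the replicate block, spleen calls were 1 higher and 0 lower over all genes, with 0 higher and 0 lower interferon gamma responsive genes 0 higher type I interferon stimulated genes, 0 higher NF-kB responsive genes and 0 lower T cell marker genes. Depth limits Ifng in duodenum (5 counts in 6 libraries) and Cxcl11 in spleen (13 counts in 6).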
